A study of Homo sapiens with 12 samples.

Results

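With LPS, the libraries of 5-lipoxygenase knockout cells were compared with those of wild-type cells, entry by entry, over every kind of small RNA in the authors' with-LPS table apart from the miRNA precursors. That gives 927 of the 1380 entries that the 2 tables of the series list between them, and 6 of the 12 samples. The cells are Mono Mac 6 (MM6), a human monocytic line, and the question was how loss of 5-lipoxygenase (5-LO) alters small RNAs in these cells once they respond to a bacterial stimulus. The first group is wild type (WT) and the second is the knockout (5-LO KO, labelled ALOX-5 -/-), with 3 libraries each. In both, the cells were differentiated for 72 h with TGF-β (1 ng/mL) plus calcitriol (50 nM), and LPS was given at 1 µg/mL for 6 h. The sample labels do not say which knockout clone is behind a library. The table holds no messenger RNA, ALOX5 included, and the genotype was therefore taken from the labels unchecked. The library kit was applied to total RNA and the size selection was made for miRNA and its precursors.

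5-LO makes leukotriene precursors from arachidonic acid in myeloid cells and is also known to bind Dicer, the enzyme that releases mature miRNAs from their hairpins. Mature miRNAs pair with messenger RNAs mainly through their seed. Among the other classes, C/D box snoRNAs guide ribose methylation and H/ACA box snoRNAs guide pseudouridylation of ribosomal and other RNAs, tRNAs carry amino acids to the ribosome, and Y RNAs bind the Ro60 protein. LPS activates monocytes through TLR4 and NF-κB, and miR-155 and miR-146a are known targets of that pathway.

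Sequences are shown for some of the highest and lowest mature miRNA ratios, and for miR-146a-5p, miR-155-5p and miR-31-5p. They are from RefSeq (GRCh38.p14), with the seed, bases 2 to 8, in capitals. The first 4 fall into 2 groups of equal seed, the let-7 pair at the opposite ends of the mature miRNA ratios and the miR-146 pair, whose more abundant member was among the highest.
let-7b-5p: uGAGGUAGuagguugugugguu
let-7e-5p: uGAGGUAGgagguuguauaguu
miR-146b-5p: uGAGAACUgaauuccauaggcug
miR-146a-5p: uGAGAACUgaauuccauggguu
miR-30c-5p: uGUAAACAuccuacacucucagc
miR-423-5p: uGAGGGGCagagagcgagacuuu
miR-26a-5p: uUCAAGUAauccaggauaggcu
miR-103a-3p: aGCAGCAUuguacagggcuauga
miR-18a-5p: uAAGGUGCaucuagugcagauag
miR-148b-3p: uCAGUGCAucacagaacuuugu
miR-196b-5p: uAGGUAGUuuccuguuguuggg
miR-31-5p: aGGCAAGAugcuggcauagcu
miR-155-5p: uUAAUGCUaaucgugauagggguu
The last 9 of these carry 9 further seeds, so apart from the 2 pairs no seed is shared among the miRNAs shown.

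From GRCh37, the build of the annotation used for snoRNAs, come the transcripts of C/D box snoRNAs that had ratios of opposite sign, with the boxes TGATGA and CTGA in capitals.
U95: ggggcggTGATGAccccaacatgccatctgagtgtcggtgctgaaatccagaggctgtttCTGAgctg
U106: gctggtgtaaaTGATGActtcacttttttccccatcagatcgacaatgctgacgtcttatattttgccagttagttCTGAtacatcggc
HBII-52-23: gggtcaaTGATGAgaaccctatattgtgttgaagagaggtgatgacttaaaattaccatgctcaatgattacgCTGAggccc
U95 (SNORD95, chr5:180670312-180670379, reverse strand) lies in RACK1, the gene of a ribosomal scaffold protein, and U106 (SNORD12C, chr20:47895477-47895565, forward strand) in an intron of the noncoding gene ZFAS1. HBII-52-23 (SNORD115-23, chr15:25456943-25457024) lies on the forward strand in SNHG14, the long imprinted transcript of the Prader-Willi region. The H/ACA box snoRNAs of highest ratio have their ACA box in capitals.
HBI-115: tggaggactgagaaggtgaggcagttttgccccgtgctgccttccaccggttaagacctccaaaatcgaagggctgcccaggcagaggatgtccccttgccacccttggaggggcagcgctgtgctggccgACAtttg
ACA52: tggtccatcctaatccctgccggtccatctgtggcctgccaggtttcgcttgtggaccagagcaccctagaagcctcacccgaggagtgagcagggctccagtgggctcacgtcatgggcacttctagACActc
HBI-115 (SNORA47, chr5:76376259-76376396, reverse strand) lies in an intron of ZBED3, and ACA52 (SNORA52, chr11:811681-811814, forward strand) in RPLP2, a ribosomal protein gene. Of 120 C/D box snoRNAs at the level used here and with a single position, 91 (75.8%) hold TGATGA in their first 21 bases, 111 (92.5%) hold CTGA in their last 15, and 90 hold both. Of 39 H/ACA box snoRNAs, 37 (94.9%) hold ACA in their last 8 bases. Only the strand of the gene was searched.

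All values are the authors' means of normalized counts over the 3 libraries of a genotype, which are called signal or, below, means. The log2 ratio is that of the KO mean to the WT mean, so a positive value is a higher KO mean. An entry's level is the mean of its 2 means, and counts and medians are over entries of level 50 or more unless said otherwise. Since each genotype has 1 deposited mean, there is no spread between libraries for these entries, no test was made, and "higher" and "lower" describe the means. Beside a ratio stands its 95% counting interval, obtained from size factors that were recovered from the small means (1.72, 1.07 and 0.665 for WT, 1.30, 0.835 and 0.812 for KO). Intervals and floors cover counting error only, as reads without molecular identifiers are not independent molecules. In bulk RNA, fewer cells that carry an RNA and less of it per cell cannot be told apart.

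The 927 entries were 314 piRNA, 287 snoRNA, 262 mature miRNA, 57 tRNA, 4 Y RNA and 3 rRNA entries. Of these, 437 reached level 50, among them 239 snoRNA, 98 piRNA, 71 mature miRNA and 22 tRNA entries and all Y RNA and rRNA entries. A mean of 0 was listed for 92 entries in WT and for 117 in KO. Just inside the level were miR-15b-5p (50.5), piR_006465 (50.7) and ACA49 (51.1), and just outside were tRNA-Leu-CTA (49.4), ACA1 (48.9) and HBII-52-3 (48.7).

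tRNA entries were the class with the most uniform direction. All 22 at level 50 had a lower mean in KO, 20 of them with an interval below 0, where 200 of all 437 entries (45.8%) had one. Their median log2 ratio was -0.87, against -0.04 over all 437 entries. Once the ratios were centred on the median of all entries, 21 were lower and 1 was higher. Mature miRNAs leaned the other way, with 51 higher and 20 lower and a median of 0.28. That lean depends on the scaling, because setting the mature miRNA sums equal gave 39 higher and 32 lower with a median of 0.04. snoRNAs had a median of -0.01, with 118 higher and 121 lower. Once centred these counts were 125 and 113, and with the mature miRNA sums set equal 79 and 160. piRNA entries had a median of -0.17, with 31 higher and 67 lower. With the mature miRNA sums set equal, 19 piRNA entries were higher and 79 lower, with a median of -0.42. Under equal mature miRNA sums every log2 ratio moves by -0.24, the only scaling tried that shifts the median of all entries by more than 0.1.

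At least 2-fold higher in KO were 6 of the 437 entries (1.37%), and at least 2-fold lower were 24 (5.49%). Of the 24 lower entries, 14 were piRNA entries, 9 were tRNAs and 1 was a mature miRNA, let-7e-5p. The 6 higher entries were let-7b-5p, miR-6087, U95, HBI-115, piR_020008 and piR_019521. The nearest entries on either side of the fold were tRNA-Leu-TTG (log2 ratio -1.02) inside and tRNA-Pro-CCA (-0.99) outside, and at the upper end U95 (1.07) inside and miR-146b-5p (0.97) outside. Without LPS, 8 of 444 entries were past the fold on the higher side (1.8%) and 19 on the lower (4.28%). There, 3 of 21 tRNA entries were at least 2-fold lower, where with LPS it was 9 of 22. With the mature miRNA sums set equal, 4 entries were higher and 43 lower with LPS, so the higher ones were 8.51% of those past the fold and not 20.0%.

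**Figure D1:**
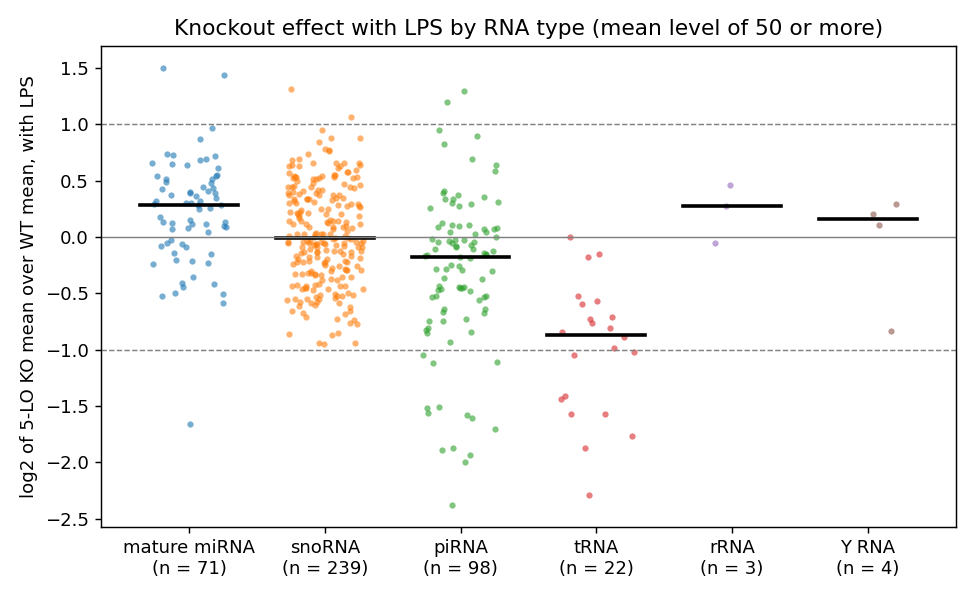
Log2 ratio of the KO to the WT mean (y axis) of each entry at level 50 or more with LPS, by RNA class (x axis), with the median of each class marked. The 22 tRNA entries lie between -2.29 and 0, below most mature miRNAs.

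The tRNA entries summed to 92128 in WT and 44925 in KO, a 2.05-fold lower sum, which is 0.960% of all signal in WT and 0.446% in KO. Lysine tRNA tRNA-Lys-AAG had a mean of 6180.0 in WT and 1262 in KO (log2 ratio -2.29, interval -2.34 to -2.24), the lowest ratio among tRNA entries at level 50. tRNA-Thr-ACA, for threonine, had 132 and 35.98 (-1.87), and tRNA-Tyr-TAC, for tyrosine, had 135 and 39.7 (-1.76). These were the 3 lowest ratios at level 50, while some entries of lower level had ratios below them. The 4 entries that hold 82.8% of the WT tRNA sum and 76.3% of the KO sum were lower by different amounts. tRNA-Glu-GAG_, the most abundant, had 33059 in WT and 19958 in KO (-0.73, -0.74 to -0.71). tRNA-Asp-GAY had 21796 and 7336 (-1.57), and tRNA-Gln-CAA_ had 15221 and 5719 (-1.41). So 3 abundant entries, for aspartate, glutamine and lysine, were past 2-fold, while the glutamate entry was not.

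At the other end, tRNA-Gly-GGY had 2636 in WT and 2635 in KO, a ratio whose interval of -0.05 to 0.05 includes no difference. tRNA-Glu-GAA (-0.15) and tRNA-Ser-TCA(m) (-0.17) came next. Isoacceptors of an amino acid therefore differed. The glycine entry tRNA-Gly-GGG had 2762 and 1336 (-1.05), unlike tRNA-Gly-GGY. The lysine entry tRNA-Lys-AAA had 1813 and 1012 (-0.84), a smaller difference than tRNA-Lys-AAG. These isoacceptors were chosen after their values were seen.

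Over all 57 tRNA entries, 54 had signal in both genotypes, and 53 of these were lower in KO. Of the 54, 44 had an interval below 0, beside 257 of 718 entries of all classes with signal in both genotypes (35.8%). Their median was -1.16, and 32 were at least 2-fold lower, beside 87 of the 718 (12.1%). The single higher entry, tRNA-Thr-ACG (0.30), had an interval that includes 0. When the entries were summed by amino acid, all 20 amino acids other than selenocysteine had the lower sum in KO. The log2 ratios of the sums ran from -2.30 for cysteine (1 entry, 7.86 in WT and 1.59 in KO) to -0.22 for serine (6 entries, 2302 in WT and 1972 in KO). Most of the serine sum came from tRNA-Ser-TCA(m), with 2127 in WT and 1885 in KO (-0.17). Each of the other serine entries had a lower ratio, so the value for serine mainly describes tRNA-Ser-TCA(m). Alanine (4 entries) had -1.64, phenylalanine (1 entry) -2.005 and glycine (3 entries) -0.48.

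**Figure D2:**
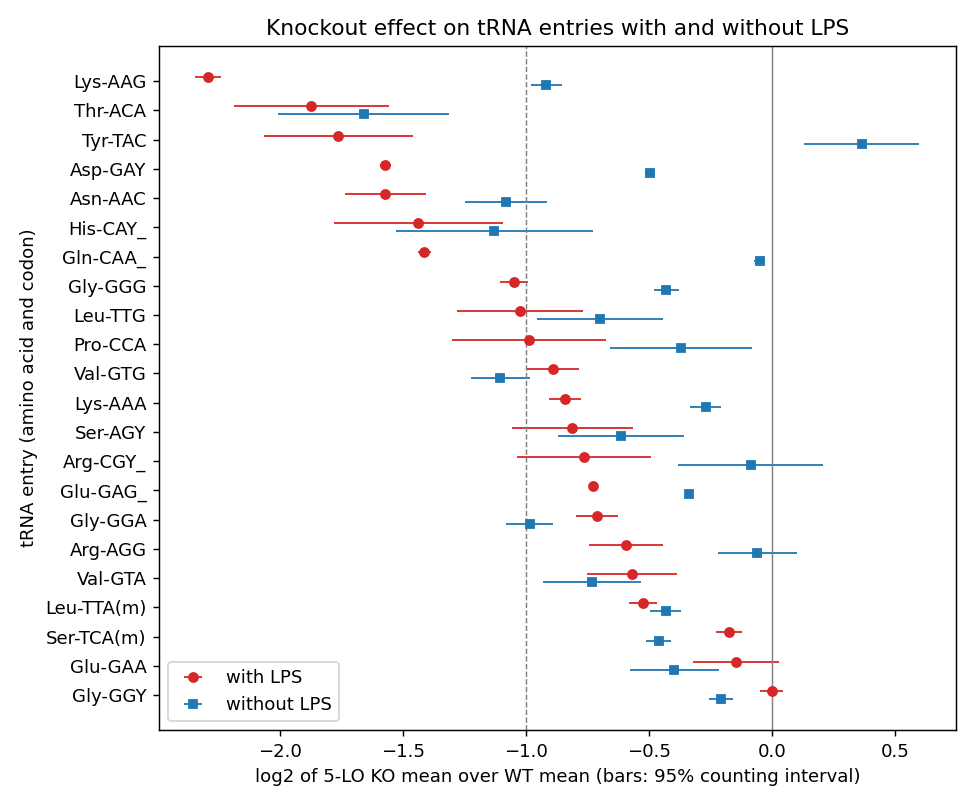
Log2 ratio of the KO to the WT mean with its 95% counting interval for the 22 tRNA entries at level 50 with LPS, beside the ratio of the same entries without LPS. The values with LPS run from -2.29 for tRNA-Lys-AAG to 0 for tRNA-Gly-GGY.

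Several of these tRNA ratios were nearer 0 in the table without LPS. tRNA-Lys-AAG had -0.92 there, a difference of -1.37 (interval -1.46 to -1.29) between the effects. tRNA-Gln-CAA_ had -0.05 without LPS, a difference of -1.36, and tRNA-Asp-GAY had -0.50, a difference of -1.08. tRNA-Tyr-TAC was higher in KO without LPS (0.37), so its effects differ by -2.13 (-2.51 to -1.75). Of 21 tRNA entries at level 50 in both tables, 15 had the lower ratio with LPS, 12 of them by more than the counting interval, while 4 had the higher ratio by more than the interval. Those 4 were tRNA-Ser-TCA(m), tRNA-Gly-GGA, tRNA-Val-GTG and tRNA-Gly-GGY, named after their values were seen. Over all 433 entries at level 50 in both tables, 227 had the lower ratio with LPS. By more than the interval, 162 of the 433 were lower and 122 higher. The median of the 21 was -0.84 with LPS and -0.43 without. The 2 tables come from different libraries with separate normalization, which leaves only the effects within a table to compare, and whether LPS alters the knockout effect was not tested over libraries.

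For means of at most 10, whole reads of single libraries could be recovered, and the libraries are given in order of size factor, since the columns carry no replicate number. The 12 tRNA entries with both means in that range summed to 50.0, 68.1 and 54.1 normalized counts in the WT libraries and to 33.8, 18.0 and 9.85 in the KO libraries. Every WT library was above every KO library. The means were 57.4 ± 9.49 (SD, n = 3) and 20.5 ± 12.2 (SD, n = 3), a log2 ratio of -1.48, from 195 WT and 67 KO reads. Leaving out 1 library at a time gave ratios from -2.05, without the KO library of the largest size factor, to -1.15. The other classes overlapped between genotypes. Low mature miRNA entries summed to 304, 243 and 248 in WT and to 310, 213 and 219 in KO. Low piRNA entries summed to 212, 188 and 125 in WT and to 228, 149 and 132 in KO. Low snoRNA entries summed to 41.9, 31.7 and 36.1 in WT and to 30.8, 37.1 and 34.5 in KO. Without LPS, the same 12 tRNA entries summed to 52.0, 73.9 and 40.7 in WT and to 35.2, 29.6 and 17.9 in KO, a log2 ratio of -1.01 and again no overlap.

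Of 359 low entries, 11 had all KO libraries below all WT libraries (3.06%) and 4 had them above (1.11%). The 11 held 4 tRNA entries out of the 12, picked out after their values were seen. tRNA-Ala-GCY_ had 6.40, 10.3 and 9.02 normalized counts in the WT libraries and 0.769, 2.40 and 0 in the KO libraries. tRNA-Cys-TGY had 4.65, 8.40 and 10.5 in WT and 2.31, 0 and 2.46 in KO. tRNA-Thr-ACG_ had 5.82, 13.99 and 3.01 in WT and 0, 2.40 and 0 in KO. For tRNA-Ala-GCY_, tRNA-Cys-TGY and tRNA-Thr-ACG_, each library of WT thus exceeded each of KO. The fourth, tRNA-Ser-TCA_, had 2.33, 2.80 and 6.01 in WT against 0.769, 1.20 and 0 in KO. Also below were the mature miRNAs miR-28-5p (5.23, 4.66 and 4.51 in WT against 3.08, 0 and 3.69 in KO) , miR-374a-3p and miR-99b-3p, the piRNA entries piR_019825 and piR_020498, and 2 snoRNA entries of identical values, SNORA11D and SNORA11E. Above were miR-148a-5p, miR-625-3p, piR_001107 and piR_016677, the first with 5.82, 7.46 and 7.51 in WT against 10.00, 10.8 and 8.62 in KO. These low entries were also chosen after their values were seen.

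**Figure D3:**
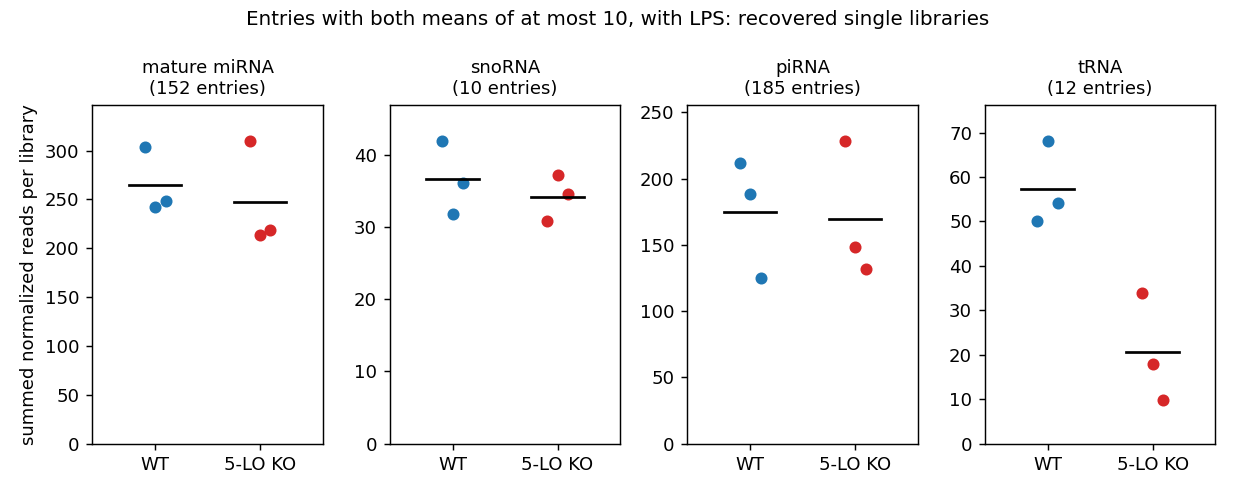
Summed normalized counts of the entries with both means at most 10, by class, for each of the 3 recovered WT and 3 recovered KO libraries with LPS (points), with the mean of each genotype as a line. The tRNA sums are 50.0 to 68.1 in WT and 9.85 to 33.8 in KO, while the other classes overlap.

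Among entries with a mean of 0 in a genotype, miR-31-5p was listed at 0 in WT and at 19.0 in KO. Against a floor of 3 reads over the WT libraries, a mean of 0.868, that is at least 21.9-fold higher. miR-31-5p was also at 0 in WT without LPS, with 9.70 in KO. Its other arm, miR-31-3p, had 2, 5 and 0 reads in the KO libraries and was also at 0 in WT (at least 2.89-fold higher). Both arms of MIR31 were thus listed above 0 in KO and at 0 in WT with LPS. miR-1304-3p, at 0 in WT, had 2, 4 and 0 reads in KO (at least 2.43-fold higher). For miR-31-3p and miR-1304-3p these bounds rest on 1 library, since without the KO library of most reads the KO mean is 0.769, below the floor. In the other direction, tRNA-Ile-ATA, an isoleucine tRNA, had 10.6 in WT and 0 in KO, at least 10.4-fold lower against the KO floor of 1.018. let-7f-1-3p, the minor arm of a let-7 hairpin, had 5, 0 and 9 reads in WT and none in KO (at least 5.38-fold lower), and tRNA-Thr-ACY had 5, 8 and 0 reads in WT and none in KO (at least 3.40-fold lower). Without the WT library of most reads, the KO minus WT difference of let-7f-1-3p and of tRNA-Thr-ACY is -1.45 normalized counts, so these bounds too depend on 1 library. In the table without LPS, miR-1304-3p had a mean of 1.87 in WT. There, let-7f-1-3p (2.41), tRNA-Thr-ACY (1.81) and tRNA-Ile-ATA (0.748) had means above 0 in KO. The 0 listed for each of these entries with LPS was thus not seen without LPS. Low mature miRNAs seldom had a single read, with 21 such values against 167 of 2 reads, so a 0 does not exclude single reads.

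At level 50, mature miRNAs spanned log2 ratios from -1.66 for let-7e-5p to 1.501 for let-7b-5p, the pair of let-7 miRNAs with a shared seed shown above. Next highest was miR-6087, with 64.3 in WT and 174 in KO (1.44, 1.20 to 1.68) and 0.81 without LPS. miR-146b-5p, which is known to dampen Toll-like receptor signalling, had 3704 in WT and 7241 in KO (0.97, 0.93 to 1.00), against 0.75 without LPS. It was the most abundant of the 8 highest. miR-146a-5p, with the same seed, had 468 and 555 (0.25, 0.14 to 0.35). The more abundant of the miR-146 pair thus had the higher ratio. miR-30c-5p had 43.3 and 79.1 (0.87, 0.56 to 1.18). miR-423-5p (0.74), miR-186-5p (0.73), miR-26a-5p (0.72) and miR-1248 (0.70) complete the highest 8. The ratio was higher with LPS than without by 0.63 for miR-1248 and by 0.59 for miR-30c-5p, but these were picked as high with LPS. Over all 70 mature miRNAs at level 50 in both tables, 41 had the lower ratio with LPS. The difference lay below 0 by more than its counting interval for 23 and above for 17. Among the 433 entries of all classes, these counts were 227, 162 and 122.

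let-7e-5p was the only member of the miR-99b cluster at level 50. The other members, miR-99b-5p (34.3 in WT and 7.55 in KO, -2.19) and miR-125a-5p (65.4 and 24.0, -1.45), were lower in KO as well. For let-7e the paper's qRT-PCR, in differentiated cells with no LPS described, found no change in the knockout. There miR-99b-5p and miR-125a were lower. The paper calls the discrepancy unclear and names unspecific sequencing of let-7e as a possible reason, which was not tested. Next after let-7e-5p at level 50, miR-103a-3p, which comes from introns of the pantothenate kinase genes PANK3 and PANK2, had 386 in WT and 258 in KO (-0.58, -0.72 to -0.45). Without LPS its ratio was -0.15, a difference of -0.43 between the effects (-0.60 to -0.26). miR-18a-5p (-0.53), miR-664a-3p (-0.51), miR-148b-3p (-0.50), miR-664a-5p (-0.45), miR-196b-5p (-0.42) and miR-223-5p (-0.41) followed. Of these, miR-223 is a marker of granulocytes and monocytes, and miR-196b lies among the HOXA genes. miR-196b-5p had 434 in WT and 325 in KO. The entries of highest level were the arms of miR-3607, whose gene is annotated as a snoRNA, with 19561 and 21247 for miR-3607-3p (0.12), and miR-92a-3p with 8598 and 11101 (0.37). The miR-3607 arms were higher in KO with LPS and lower without (-0.13), and with the mature miRNA sums set equal they were lower in KO with LPS too.

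**Figure D4:**
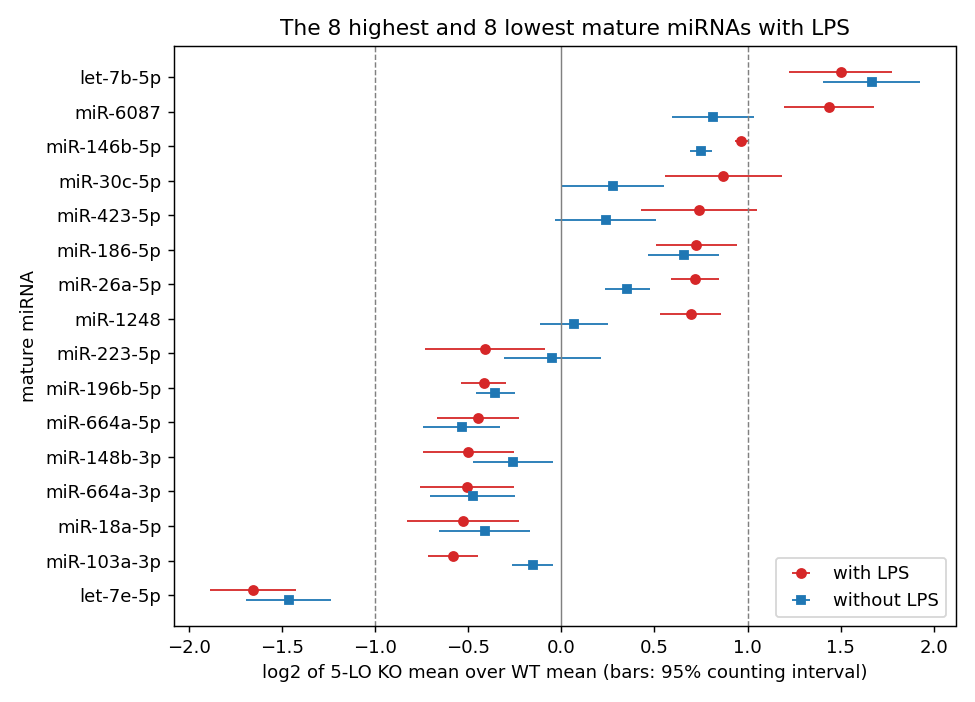
Log2 ratio of the KO to the WT mean (x axis) with its 95% counting interval for the 8 highest and 8 lowest mature miRNAs with LPS (y axis), in red with LPS and in blue without. let-7b-5p (1.501) and let-7e-5p (-1.66) lie at the ends, and miR-1248 has 0.70 with LPS beside 0.07 without.

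Of 14 LPS-responsive miRNAs listed, 11 were in the table and 7 reached level 50, 5 with a higher and 2 with a lower KO mean, or 3 and 4 with the mature miRNA sums set equal. The median of these 7 was 0.18 with LPS, beside 0.28 for all mature miRNAs. Without LPS the same 7 had a median of 0.56, beside 0.22 for all mature miRNAs. miR-155-5p, which promotes inflammatory activation, had 1360.2 in WT and 1783 in KO (0.39, 0.33 to 0.45), against 0.56 without LPS. miR-21-5p had 2816 and 3188 (0.18, or -0.06 with the mature miRNA sums set equal), against 0.64 without LPS, a difference of -0.46 (-0.52 to -0.40). The clustered miR-221-3p and miR-222-3p were lower in KO with LPS (-0.15 and -0.24) and higher without (0.13 and 0.18).

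Of all 71 mature miRNAs at level 50, 51 were higher in KO (39 with the mature miRNA sums set equal), with a median of 0.28, beside which the family counts stand. In the let-7 family, 7 of the 8 members at level 50 were higher in KO and let-7e-5p was lower under each scaling, with a median of 0.34. The miR-30 family had 4 of 4 higher under each scaling (median 0.54), and the miR-106b-25 cluster had 3 of 3 higher under each scaling (median 0.39). In the miR-181 family, known in haematopoietic development, 5 of 5 were higher with a median of 0.30, or 3 of 5 with the mature miRNA sums set equal. miR-181a-5p had 1780.4 in WT and 2415 in KO (0.44), against 0.14 without LPS, a difference of 0.30 (0.23 to 0.38).

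The miR-17-92 cluster, whose miRNAs come from a single transcript and promote proliferation, had ratios of both signs. Of its 6 members at level 50, 4 were lower and 2 were higher in KO, or 5 and 1 under equal sums of all entries or of mature miRNA, and the median was -0.19. miR-17-5p had 806 and 686 (-0.23), miR-20a-5p had 1109 and 1004 (-0.14) and miR-19a-3p had 89.8 and 70.2 (-0.36). The higher members were miR-92a-3p, which also arises from a second cluster, and miR-19b-3p (0.04). Of 12 groups of miRNAs that share a seed at level 50, 7 had ratios of a single sign and 5 of both, or 6 and 6 with the mature miRNA sums set equal. miR-92a-3p and miR-25-3p, of seed AUUGCAC, had like ratios (0.37 and 0.39). miR-17-5p, miR-20a-5p and miR-93-5p share the seed AAAGUGC and had ratios from -0.23 to 0.30. miR-26a-5p (0.72) and miR-26b-5p (-0.20) share the seed UCAAGUA. miR-26a-5p comes from other genes than miR-26b-5p, and these groups were chosen after their values were seen.

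All 12 myeloid markers were in the table, and 10 reached level 50, of which 8 were higher and 2 lower in KO (5 and 5 with the mature miRNA sums set equal), with a median of 0.21. The sum of all 12 was 5420.5 in WT and 6485 in KO, and miR-21-5p was the most abundant. miR-142-5p, a miRNA of blood cells, had 254 and 372 (0.55), while miR-223-3p had 60.4 and 58.0 (-0.06, -0.36 to 0.25). Markers of myeloid cells were thus present in both genotypes. None of the 4 erythroid, 1 lymphoid, 1 liver and 3 muscle markers was listed. Of 7 epithelial markers 2 were listed, with a sum of 1.39 in WT and 2.85 in KO, and of 3 neuronal markers 2 were, with 26.9 and 27.3, of which miR-9-5p is also LPS-responsive. Of 6 endothelial or fibroblast markers 3 were listed, with 66.8 in WT and 49.9 in KO, mostly miR-143-3p (50.1 and 35.9), and their part in any result was not tested.

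Among snoRNAs, 2 were at least 2-fold higher in KO and none was 2-fold lower. With equal sums over all entries 1 was higher and 3 were lower (U86, HBII-95B and U79), and with equal mature miRNA sums 1 was higher and 8 were lower, U95 no longer being past the fold in either. HBI-115 had 32.1 in WT and 79.4 in KO (1.31, 0.96 to 1.65). U95 had 5624 and 11786 (1.07, 1.04 to 1.09), against 1.61 without LPS, a difference of -0.54 (-0.58 to -0.51). These are an H/ACA and a C/D box snoRNA, both shown above. ACA52 followed with 129 and 249 (0.95) and had 0.27 without LPS, a difference of 0.68. U85 (SCARNA10, 0.88), a guide for spliceosomal RNA, and HBII-52-23 (985 and 1813, 0.88) complete the highest 5. The lowest were U86 (-0.95), HBII-95B (-0.94), U79 (SNORD79, 6026 and 3136, -0.94), U56 (SNORD56, 12821 and 7024, -0.87) and U106 (92169.5 and 50880.2, -0.86). U106 was lower without LPS too (-1.03).

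The most abundant snoRNAs had ratios near 0. U29 (SNORD29) had 782402 in WT and 798217 in KO (0.03), U104 (SNORD104) had 650211 and 752977 (0.21), and U26 (SNORD26) had 472395 and 501401 (0.09). Under equal mature miRNA sums these 3 were lower in KO, and U29 also under equal sums of all entries. By class, the 151 C/D box snoRNAs had a median of -0.05 (70 higher and 81 lower), or of -0.29 with 50 higher and 101 lower with the mature miRNA sums set equal. The 57 H/ACA box snoRNAs had a median of 0.11 with 34 higher and 23 lower, or 19 higher and 38 lower with the mature miRNA sums set equal. The 15 scaRNAs, which guide changes of spliceosomal RNA in Cajal bodies, had a median of 0.22, less than the shift that equal mature miRNA sums bring.

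The SNORD115 and SNORD116 copies of the imprinted SNHG14 region, chosen after their values were seen, had opposite directions with LPS. All 34 SNORD115 (HBII-52) copies were higher in KO, or 32 of 34 with the mature miRNA sums set equal, with a median of 0.54 and a range from 0.14 to 0.88. Their sum was 21306 in WT and 31131 in KO. Of 22 SNORD116 (HBII-85) copies, 21 were lower, or 20 once ratios were centred on the median of all entries, with a median of -0.32 and a range from -0.62 to 0.26. Their sum was 175381 in WT and 148526 in KO. As the tables are deposited, the SNORD115 copies were also higher without LPS, 34 of 34 with a median of 0.51. The SNORD116 copies had 12 higher and 10 lower there and a median of 0.01. Between the tables the median thus differed more for SNORD116 than for SNORD115, which was not tested. The copies are alike in sequence and are not independent, since the 34 hold 28 distinct pairs of means and the 22 hold 20.

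Host genes with 3 or more snoRNAs at level 50 gave further groups, chosen after their values were seen. RPL7A, a ribosomal protein gene, holds U24, U36A and U36B, all lower in KO under each scaling, with U24 at 19408 and 12679 (-0.61) and a median of -0.54. RPL4, another ribosomal protein gene, holds U18A, U18B and U18C, also all lower under each scaling, with a median of -0.19. In RABGGTB, which encodes a subunit of the Rab geranylgeranyl transferase, U45A, U45B and U45C were all higher under each scaling, from 0.31 to 0.35. Within each of these hosts the snoRNAs had ratios of a single sign. In SNHG17, a noncoding host gene, they had both signs, from -0.13 to 0.21, or were all lower with the mature miRNA sums set equal. In TAF1D all 3 were lower, or 2 of 3 once ratios were centred on the median of all entries.

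piRNA entries held 14 of the 24 entries that were at least 2-fold lower. Since 28 of the 98 entries at level 50 carry several names, the 98 form 80 groups that share no name, and the 14 lower entries form 10 such groups. The lowest was piR_019912, with 482 in WT and 93.0 in KO (-2.38, -2.57 to -2.19), against -1.57 without LPS. The entry that joins piR_000794, piR_019914, piR_016945 and piR_022628 had 798 and 199.95 (-1.996), against -0.71 without LPS. piR_012734 (-1.93), piR_001184 (3625 and 976, -1.89) and piR_016946 (-1.87) complete the lowest 5. piR_001184 was even lower without LPS, at -2.26. PIWI-interacting RNAs are known from germ cells, and the names are those of the authors' annotation.

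On the higher side, piR_020008 had 79.7 in WT and 196 in KO (1.30, 1.08 to 1.52), against 0.50 without LPS. piR_019521 (1.20), piR_001356 (0.95), piR_016659 (0.89) and piR_020009 (0.83) followed. Of the 3 most abundant piRNA entries, piR_001207 had 590332 and 633619 (0.10, but lower in KO with equal mature miRNA sums), piR_001159 had 159013 and 142478 (-0.16), and piR_016735 had 101603 and 163891 (0.69). So the most abundant entries spread to both sides of 0. The entry joining piR_004801 and piR_017295 had -1.60 with LPS and -0.16 without, a difference of -1.45 (-1.60 to -1.29). The opposite held for piR_001170, with -0.25 with LPS and -1.52 without, a difference of 1.27 (1.25 to 1.30).

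Of the 4 Y RNAs, HY3 was lower in KO with 3176 in WT and 1781 in KO (-0.83, -0.88 to -0.79). HY1 had 5211 and 6374 (0.29), HY4 had 15915 and 18378 (0.21) and HY5 had 3474 and 3739 (0.11). With the mature miRNA sums set equal, HY4 and HY5 were lower in KO as well. Without LPS all 4 were lower in KO, from -1.34 for HY3 to -0.18 for HY4. The effects differed by 0.38 to 0.65 between the tables, all by more than the counting interval, so each Y RNA had the higher ratio with LPS.

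The rRNA signal was mostly 5S, with 1522660.0 in WT and 2091230.0 in KO (0.46), against 0.64 without LPS. LSU rRNA had 63135 and 76162 (0.27) and SSU rRNA 58120 and 56145 (-0.05). SSU rRNA was lower without LPS by more (-0.46). By share of all signal, rRNA made up 17.1% in WT and 22.1% in KO, snoRNA 64.7% and 60.8%, piRNA entries 15.9% and 15.3%, and mature miRNA 0.971% and 1.10%. Without the most abundant entry of each class, the KO share of rRNA exceeded that of WT by 0.213 percentage points in place of 4.96. The snoRNA difference was then 0.218 points in place of -3.94, while the tRNA difference stayed at -0.505 points beside -0.513.

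Over the 433 entries at level 50 in both tables, the log2 ratios with and without LPS had a Pearson r of 0.78 and a Spearman rho of 0.79. These values describe entries of 2 sets of libraries, and entries are not independent replicates. Within classes r was 0.80 for snoRNA, 0.77 for mature miRNA, 0.75 for piRNA entries and 0.29 for the 21 tRNA entries. The sign differed between the tables for 91 of the 433. The difference of the effects lay below 0 by more than its counting interval for 162 entries and above for 122. Of these 4 classes r was lowest for tRNA entries, though their sign differed for 1 of 21, against 18 of 70 mature miRNAs and 54 of 239 snoRNAs.

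**Figure D5:**
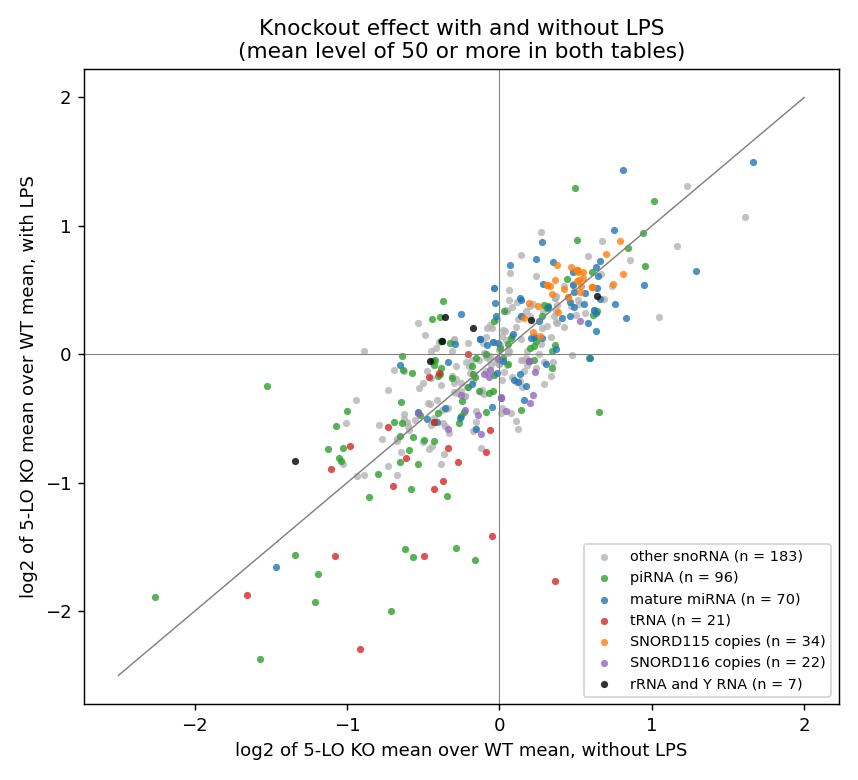
Log2 ratio of the KO to the WT mean with LPS (y axis) against that without LPS (x axis) for the 433 entries at level 50 in both tables, coloured by class, with the SNORD115 and SNORD116 copies apart from other snoRNAs. Most entries lie along the diagonal, while tRNA entries lie mainly below it, as tRNA-Tyr-TAC does with -1.76 and 0.37.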

How the data were processed

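Small RNA libraries of WT and 5-LO KO MM6 cells with LPS were compared through the deposited table, in which the authors give the signal of each entry as 1 mean of normalized counts per genotype. According to the paper's methods the authors trimmed adapters and annotated reads with omiRas on hg19, and a figure legend calls the values means of normalized counts. The version, mismatches and scaling are not stated. The table's log2 ratio, p-value and false discovery rate columns hold the authors' own comparison and were not used. Precursor entries were left out, and whether they count mature reads again was not tested.

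Log2 ratios were computed from the means. The search for size factors took means of at most 10 as sums of whole reads over 3 libraries and gave 361 WT and 352 KO values, all in 1 way to 6 significant digits. None stayed whole when moved off their printed values. The method was tested on simulated data with counting error only. That test does not cover the wider spread between libraries given under other observations. No column was unassigned (0). Named entries are the extremes of each class, those of highest level, all rRNA and Y RNA entries, list members, entries listed at 0 in 1 genotype and those differing most between tables. Members and lists were chosen with earlier results of these data known. Of 287 snoRNA entries, 266 matched 1 RefSeq symbol and 205 a single GENCODE position (GRCh37). Computation ran in Python 3.11.15 with scipy 1.17.1, pandas 2.3.3 and numpy 2.4.6, and plotting in matplotlib 3.10.9.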

Additional observations from a re-analysis of the deposited data

How the results depend on the processing

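No paired analysis was possible because the deposited columns are means that carry no replicate number. The count of entries at least 2-fold higher was 6 of 437. It became 14 of 556 at a level of 10 or more, 1 of 322 at 200 or more, 42 of 718 with no minimum and 44 of 437 at 1.5-fold. The count of lower entries was 24 of 437 (5.49%). It became 51 of 556 at a level of 10 or more and 87 of 718 (12.1%) with no minimum, so the share rose as well. Of the 437, 64 were lower at 1.5-fold and 43 with equal mature miRNA sums. The other settings gave 4 to 7 higher and 16 to 28 lower entries.

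Equal mature miRNA sums, a shift of -0.24 by construction, moved the class medians to 0.0381 (mature miRNA), -0.25 (snoRNA), -0.42 (piRNA), -1.11 (tRNA), 0.0275 (rRNA) and -0.0864 (Y RNA). With no minimum level the mature miRNA median was 0.10 and the tRNA median -1.16, and at a level of 10 or more the tRNA median was -1.04, where the cause was not tested. Equal sums over all entries gave medians of 0.20 for rRNA and 0.0882 for Y RNA, and centring on the median of all entries gave 0.31 and 0.20. The Y RNA median thus turned negative with equal mature miRNA sums, and the snoRNA median, near 0, was 0.03 with centring.

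Without the most abundant entry of each class, the KO minus WT shares in percentage points were 0.264 (mature miRNA), 0.218 (snoRNA), -0.194 (piRNA), -0.505 (tRNA), 0.213 (rRNA) and 0.00467 (Y RNA).

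Alternatives added after the data were seen kept 1 entry per group of piRNA entries that share a name (6 higher, 19 lower), kept 1 entry per pair of means (6 and 24), and left out each recovered library. Leaving out 1 library gave -2.05 to -1.15 for the summed low tRNA entries, -0.29 to 0.01 for mature miRNA, -0.32 to 0.11 for piRNA and -0.19 to 0.01 for snoRNA. For single entries it gave -3.63 to -2.47 (tRNA-Thr-ACG_, over 5 of 6 libraries, as leaving out the only KO library with reads gives a KO mean of 0), -4.48 to -2.44 (tRNA-Ala-GCY_), -3.27 to -1.92 (tRNA-Ser-TCA_) and -2.77 to -1.72 (tRNA-Cys-TGY). As differences of normalized counts, it gave 0.769 to 3.76 (miR-31-3p), 0.769 to 3.16 (miR-1304-3p), -8.22 to -1.45 (let-7f-1-3p) and -5.19 to -1.45 (tRNA-Thr-ACY).

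Of 96 named entries, 15 changed sign with equal mature miRNA sums, 2 with equal sums over all entries, 1 with centring and 0 with 1 or 10 added to the means. Of 18 named entries past 2-fold, 16 to 18 remained so under these settings.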

Other observations

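For means of 3 to 10, the spread between the recovered libraries exceeded the counting variance by a factor of 1.78 in WT (58 entries) and 2.38 in KO (67 entries). By class the factor reached 3.04 for tRNA in WT (9 entries) and 5.12 for snoRNA in KO (9 entries), so the counting intervals are narrower than intervals over libraries would be. Whether this holds at higher means was not tested. Each genotype has 3 libraries of a cell line, the knockout clone behind a library is not named, and a clone's own differences and those of the knockout cannot be told apart. The size selection was made for miRNA and its precursors, and the table does not separate fragments from whole RNAs among the tRNA, rRNA and snoRNA entries.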
